A study of Solanum lycopersicum with 39 samples.

Results

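Among the genes of tomato leaf, 33 of the 34075 listed were at a high level after 5 days without water, less than 2-fold above their untreated level after 1 day of drought, near or below it after re-watering, and within 2-fold of it after 24 h of heat, all on a scale of FPKM + 1. They were chosen from the deposited levels by a fixed rule, with D as the log2 difference between a group and its untreated group, taken on group means of FPKM + 1. FPKM counts the sequenced fragments of a gene relative to the length of its transcript and the total mapped in the library. The rule asked for a mean of at least 5 FPKM and a D of at least 2.5 at 5 days of drought, a D under 1 at 1 day, a D under 0.5 after re-watering, and a D between -1 and 1 at 24 h of heat. Of the 486 genes that met the condition at 5 days, 108 also met that at 1 day, 62 of these met that of re-watering, and 33 of these met that of heat. Another 25 genes met all the drought conditions and were past the upper bound of heat, and 4 were past the lower bound. Since these levels chose the genes, their values at 5 days, 1 day, re-watering and 24 h of heat are given as a description, without a test.

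The leaves came from the cultivar M82, aged 38 days by the sample labels (the methods of the study give a younger age for the heat series) and grown at 25 °C and 70% humidity. The drought series held 7 groups of 3 libraries: untreated plants, whose soil water had fallen to about 80% of capacity, plants after 1, 2, 3, 4 and 5 further days without water, and plants re-watered for 1 day. The heat series held 6 groups of 3 libraries: untreated plants, plants held at 42 °C and 90% humidity for 2 h, for 4 h, for 12 h or for 24 h, and plants returned to optimal conditions for 1 day (recovery). No transgene or mutant was among these samples. The untreated columns of the drought table carry the name CK, and their numbers match no label. The methods of the study call the heat replicates biological ones. For the drought series nothing says that replicates came from separate plants, and p-values there measure only the spread between the libraries.

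Leaves that lose water close their stomata, make the hormone abscisic acid and switch on genes for protective proteins, solutes and transport, while genes of photosynthesis are turned down. Heat sets off a separate program of chaperones through heat stress transcription factors, and the programs share some genes. Setting the stresses side by side can show which genes of the drought response stay near their untreated level at a given time of heat. The rule asked for this only at 24 h.

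No gene ID of the tables matched the RefSeq table at hand, and the supplementary tables of the study name or describe 206 of the listed genes. Of the 33 genes, only Solyc02g092860.3 is described there, as cytochrome P450 81D1-like. Cytochrome P450 enzymes are heme proteins that oxidise hormones, lipids, pigments and defence compounds. The other 32 genes are given by ID, and nothing is said of their function. The 2 digits after Solyc in an ID give the chromosome. The 33 genes lay on 11 chromosomes, with 5 each on chromosomes 1 and 9 and none on chromosome 5.

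Libraries that stood apart from their groups touch these results. Genes listed at 0 numbered 13889 in replicate 2 of 3 days and 10819 to 12054 in the other drought libraries. Over all genes tested, the mean Pearson's r with the other libraries of the group was 0.945 for replicate 3 of 5 days, against 0.954 and 0.957 for replicates 1 and 2, and 0.956 for replicate 3 of 2 days, against 0.970 and 0.968. Libraries were also set against those of other days by the highest r with any of them. A highest value favours other days over the mean r of the group. By this measure all libraries of 2 and 5 days and replicates 1 and 3 of 3 days were closer to a library of another day than to their own group. The closest was replicate 1 of 3 days for replicate 3 of 5 days (0.968), replicate 2 of 4 days for the other libraries of 5 days (0.962 and 0.961), and replicate 2 of 1 day for replicate 3 of 2 days (0.965). The 22 light-harvesting antenna genes that the study names, the defining genes of green leaf tissue, were above 0 in every group of both series. Their summed level was 31171 to 38194 FPKM in untreated drought libraries and 1642 to 2067 FPKM at 4 days. At 2 days it was 3907 and 4148 FPKM in replicates 1 and 2 and 10120 FPKM in replicate 3, and at 5 days it was 1174 and 1187 FPKM in replicates 1 and 2 and 5326 FPKM in replicate 3. Fewer cells of a type and less RNA per cell cannot be told apart in such bulk samples.

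**Figure D1:**
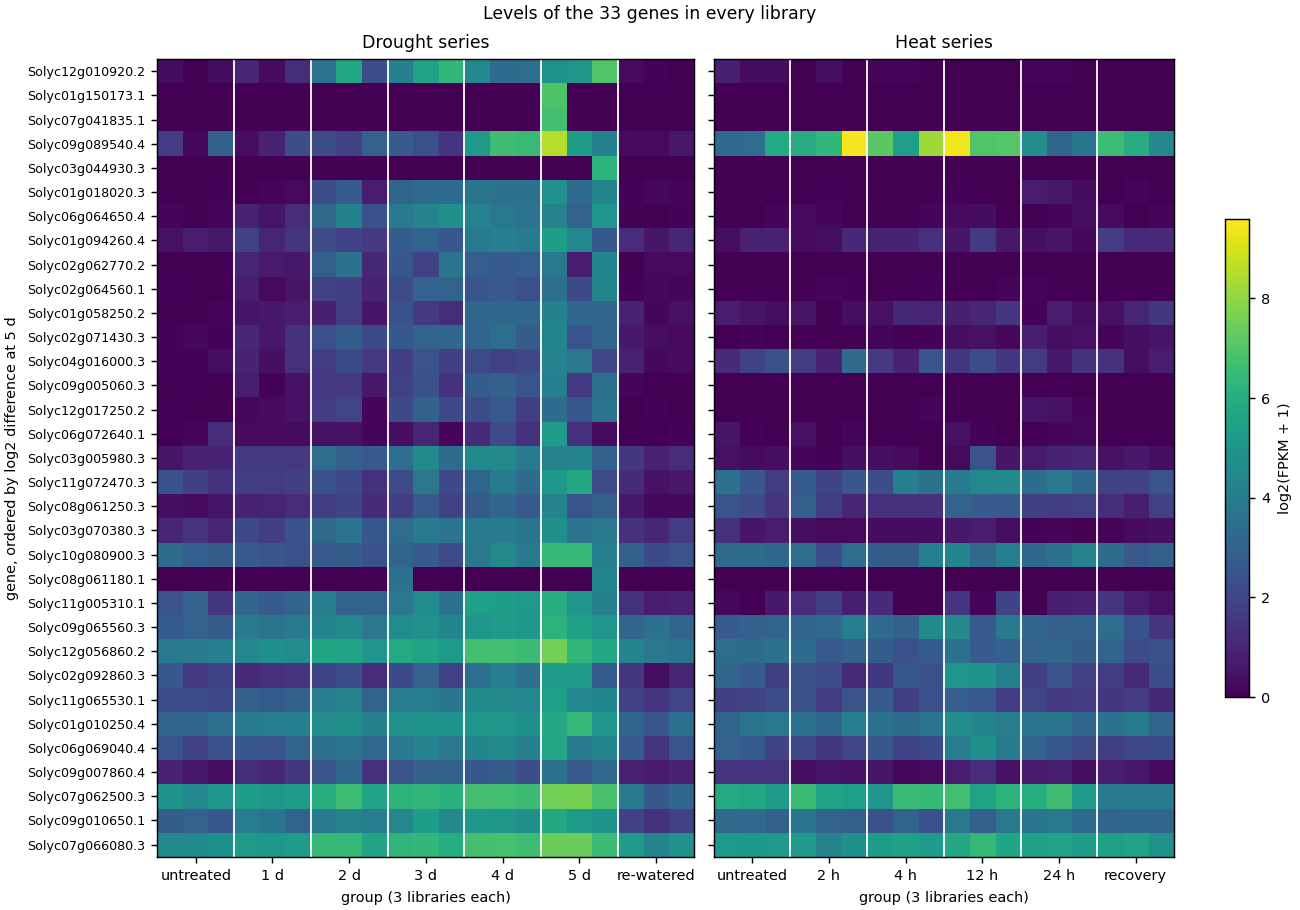
Levels of the 33 genes, as log2(FPKM + 1) in colour, in each of the 21 drought libraries (left) and 18 heat libraries (right), with genes ordered by D at 5 days and white lines between groups. Most rows brighten from 2 days of drought onward, 4 rows are lit in only 1 or 2 libraries, and most rows stay dark or level throughout the heat series.

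Of the 33 genes, 4 rested on 1 or 2 libraries. Solyc01g150173.1 was at 123 FPKM and Solyc07g041835.1 at 104 FPKM in replicate 1 of 5 days, and both were listed at 0 in the other 38 libraries of both series. Solyc03g044930.3 was at 73.0 FPKM in replicate 3 of 5 days and listed at 0 elsewhere. Solyc08g061180.1 was at 19.5 FPKM in replicate 3 of 5 days and at 11.2 FPKM in replicate 1 of 3 days, and listed at 0 elsewhere. These 4 genes have no replicate at 5 days, and the number of fragments behind their values is unknown. In the whole drought table, 10 genes were above 0 in a single library at 15 FPKM or more, and 3 of these, all members, were in libraries of 5 days. The other 29 genes were above 0 in more than 2 drought libraries, 21 of them in all 21, and the values below concern these 29 unless the 33 are named. All 29, and none of the 4, passed the minimum of 1 FPKM in 3 libraries that was set for tests.

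The 29 genes ranged at 5 days from a mean of 8.39 FPKM for Solyc09g007860.4 to 167 FPKM for Solyc07g062500.3, with a median of 22.0 FPKM. In 15 of the 29 genes the untreated mean was under 1 FPKM. The D of such genes depends on the 1 FPKM added before the logarithm, and with 0.1 FPKM added the rule gave 19 genes. On the plain FPKM scale such genes could move further than the bounds of the rule. The mean of Solyc06g064650.4 was 0.0789 FPKM in untreated leaves and 0.863 FPKM at 1 day. At 24 h of heat the mean of Solyc01g018020.3 was 0.505 FPKM against 0.0113 FPKM untreated, and that of Solyc03g070380.3 was 0.0611 FPKM against 0.930 FPKM. The rule favoured a separation of 5 days from untreated leaves, and the share of separate genes over the whole table was not taken. In 27 of the 33 genes every library of 5 days was above every untreated library. The exceptions were the 4 genes of 1 or 2 libraries, Solyc06g072640.1 and Solyc11g072470.3. Solyc06g072640.1 was at 37.2, 1.51 and 0.211 FPKM at 5 days and at 0, 0.119 and 1.42 FPKM in untreated leaves, so that replicate 1 alone carried its level. The members nearest to the threshold inside were Solyc07g066080.3 (D at 5 days 2.53), Solyc09g010650.1 (2.54) and Solyc07g062500.3 (2.56). The nearest genes outside were Solyc12g005730.2 (2.44), Solyc03g094120.3 (2.39) and Solyc07g008250.3 (2.39).

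The genes were late only by comparison with the first day, since most had already moved on the second. Counting the day on which D first reached 1, 24 of the 29 genes got there at 2 days, 1 at 3 days and 4 at 4 days. Among all 19963 genes tested, 11.6% had a D of at least 1 at 2 days, 13.6% at 3 days, 14.9% at 4 days and 14.5% at 5 days. Because the untreated libraries were part of the rule, these counts are a description. The median D of the 29 genes was 0.64 at 1 day, 1.41 at 2 days, 1.80 at 3 days, 2.46 at 4 days and 3.06 at 5 days. In 14 genes the D of 2 days was at least 50% of that of 5 days, and in 19 genes the mean FPKM rose at each step from 2 to 5 days.

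The early members included the gene of the largest D. Solyc12g010920.2 was at 0.243, 0 and 0.248 FPKM in untreated leaves and at 11.7, 52.7 and 3.91 FPKM at 2 days. It was at 17.2, 46.3 and 81.6 FPKM at 3 days, 21.2, 9.13 and 9.68 FPKM at 4 days, 29.4, 33.1 and 126 FPKM at 5 days, and 0.172, 0.0804 and 0 FPKM after re-watering. Every library from 2 to 5 days was above every untreated, 1-day and re-watered library, and every library of 5 days was above every library of 4 days, while the libraries of 2 days overlapped with those of 3, 4 and 5 days. Solyc06g064650.4 went the same way, from 0.121, 0.0250 and 0.0905 FPKM in untreated leaves to 8.93, 17.8 and 4.39 FPKM at 2 days and 18.5, 7.12 and 30.8 FPKM at 5 days. Its level had no clear step after 2 days, since the libraries of 2 and 5 days overlapped.

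Solyc02g064560.1 and Solyc02g062770.2 lie on the same chromosome and were close to 0 in untreated leaves. The former was at 0.0546 FPKM in 1 untreated library and listed at 0 in the others, at 2.75, 2.53 and 0.934 FPKM at 2 days and at 10.6, 3.49 and 19.8 FPKM at 5 days. The latter was listed at 0 in all untreated libraries and in every heat library, at 6.41, 11.1 and 1.13 FPKM at 2 days and at 13.5, 0.688 and 19.1 FPKM at 5 days. For Solyc02g062770.2 the lowest library of 5 days was below the lowest of 2 days.

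The genes of this paragraph had a higher untreated level and a smaller D at 5 days than those just given. D at 5 days was 2.76 for Solyc12g056860.2, 2.56 for Solyc07g062500.3 and 2.53 for Solyc07g066080.3. It was part of the rule, and in mean FPKM the rise of these genes was not smaller. Solyc12g056860.2 was at 14.1, 14.0 and 16.4 FPKM in untreated leaves, 20.6, 27.1 and 23.6 FPKM at 1 day, 49.0, 48.2 and 31.4 FPKM at 2 days, 102, 105 and 94.9 FPKM at 4 days and 188, 77.2 and 54.6 FPKM at 5 days. The groups of untreated, 1, 2 and 4 days did not overlap with each other, and the libraries of 5 days lay on both sides of those of 4 days. Solyc07g062500.3 rose from 30.0, 21.1 and 31.7 FPKM in untreated leaves to 107, 105 and 95.0 FPKM at 4 days and 189, 199 and 114 FPKM at 5 days. Solyc07g066080.3 was at 22.0, 22.9 and 27.2 FPKM in untreated leaves, 109, 111 and 96.5 FPKM at 4 days and 172, 166 and 93.8 FPKM at 5 days. In Solyc07g062500.3 every library of 5 days was above every library of 4 days, and in Solyc07g066080.3 replicate 3 of 5 days was below all libraries of 4 days.

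The 4 genes that reached a D of 1 only at 4 days were Solyc09g089540.4, Solyc06g072640.1, Solyc10g080900.3 and Solyc02g092860.3. Solyc10g080900.3 was at 9.49, 6.28 and 6.18 FPKM in untreated leaves, 5.84, 6.05 and 4.32 FPKM at 2 days, 7.83, 5.68 and 3.63 FPKM at 3 days, 13.5, 22.0 and 15.1 FPKM at 4 days and 85.6, 86.3 and 16.8 FPKM at 5 days. The libraries of 1, 2 and 3 days lay within or below the range of the untreated ones, and those of 4 days were above all of them. Solyc02g092860.3, the P450 gene, was at 5.06, 2.03 and 2.94 FPKM in untreated leaves, 1.20, 1.47 and 1.69 FPKM at 1 day, 10.1, 16.3 and 10.8 FPKM at 4 days and 38.01, 38.5 and 5.87 FPKM at 5 days. All its libraries of 1 day were below the untreated ones, and all those of 4 days above them. Solyc09g089540.4 varied most. It was at 2.26, 0.146 and 6.98 FPKM in untreated leaves, 34.3, 101.1 and 87.6 FPKM at 4 days and 369, 41.2 and 17.6 FPKM at 5 days.

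**Figure D2:**
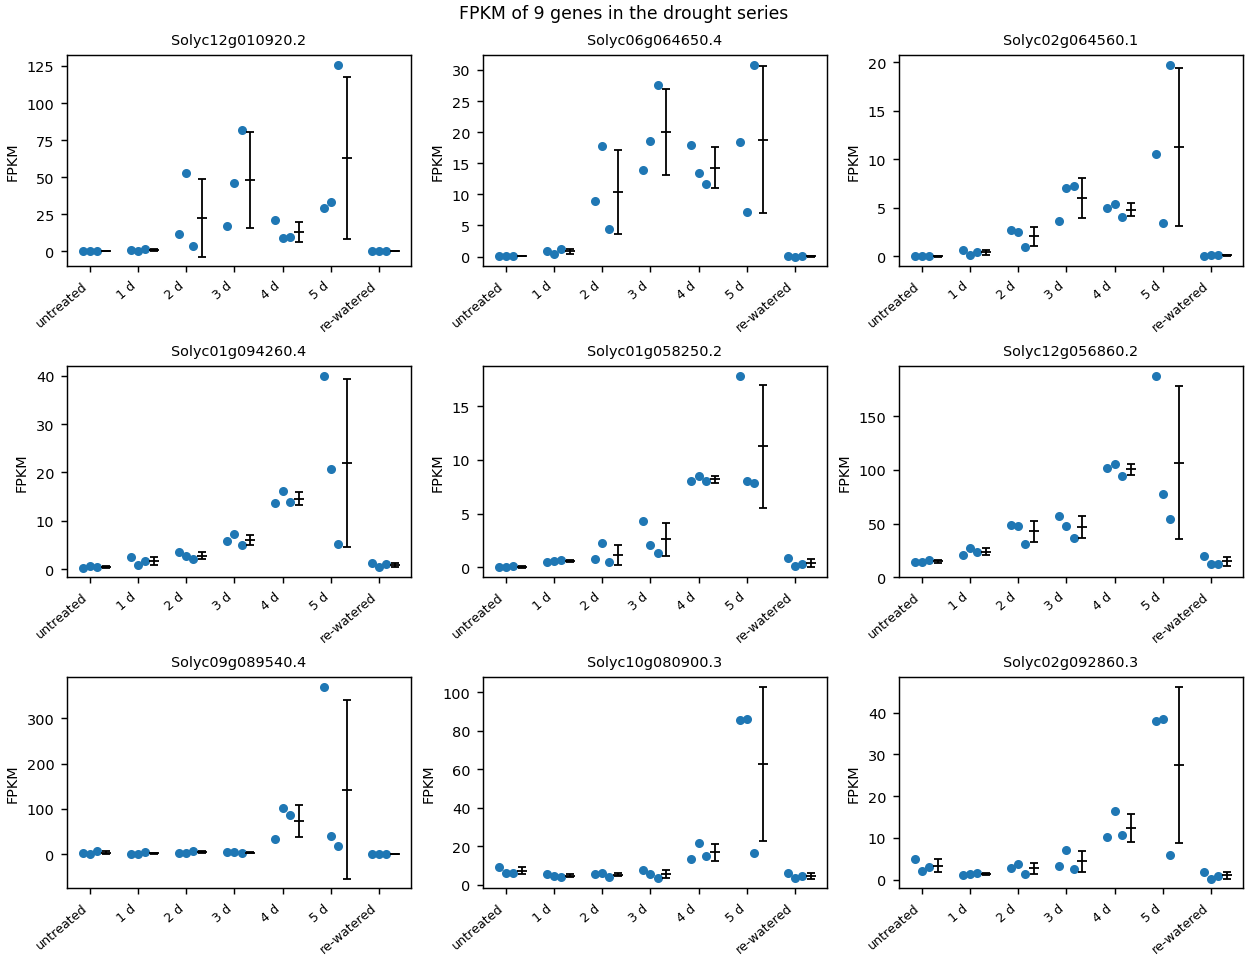
FPKM of 9 genes in the drought series, with each library as a point, and the mean with its SD (n = 3) as the bar beside each group. The upper row shows genes above their untreated level from 2 days on, the middle row genes whose mean was higher on each day up to 4 days, and the lower row genes whose D stayed under 1 through 3 days. The SD is larger at 5 days than at 4 days in every panel.

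The libraries of 2, 3 and 4 days were not used by the rule, and these groups place the rise within the drought. The rule asked for a D under 1 at 1 day and of at least 2.5 at 5 days. A rise between these days was thus largely set by the choice. A larger share than among all genes is therefore no separate support for a rise. The 21 libraries entered one limma fit on log2(FPKM + 1), for the 19963 genes that reached 1 FPKM in 3 or more libraries. A gene was called at an adjusted p (Benjamini-Hochberg) of 0.05 or less and a change of 1 or more on the log2 scale in either direction. Between 2 and 4 days, 11 of the 29 genes were higher and none was lower, against 1.74% of all genes tested that were higher and 2.64% that were lower. The median log2 fold change of the 29 genes was 0.98, against 0.06 over all genes, and 28 of the 29 were above 0. In 21 of the 29 genes every library of 4 days was above every library of 2 days, against 23.1% of all genes tested.

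The largest rise was that of Solyc09g089540.4, from 3.63, 2.68 and 7.20 FPKM at 2 days to the values of 4 days given above, with a log2 fold change of 3.72 and an adjusted p of 0.0116 by limma (standard error 0.86). Solyc01g058250.2 was at 0.785, 2.22 and 0.509 FPKM at 2 days and at 8.01, 8.53 and 8.00 FPKM at 4 days. Its log2 fold change of 2.16 and an adjusted p of 0.00111 by limma (standard error 0.32) had the lowest p of the 29 genes. Solyc01g094260.4 rose from 3.53, 2.84 and 2.08 FPKM to 13.7, 16.1 and 14.0 FPKM, a log2 change of 2.05 (adjusted p = 0.00764, limma). For Solyc11g005310.1 the values were 15.2, 7.32 and 7.63 FPKM at 2 days and 44.5, 40.5 and 35.6 FPKM at 4 days, a log2 change of 1.97 (adjusted p = 0.00738, limma). In each of these 4 genes both groups were fully separate (p = 0.1 in an exact two-sided permutation test, the smallest that 3 against 3 can give).

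The P450 gene Solyc02g092860.3 rose from 2.89, 3.87 and 1.32 FPKM at 2 days to the level of 4 days given above, with a log2 change of 1.90 (adjusted p = 0.0284, limma). Solyc01g018020.3 rose by a log2 change of 1.73 (adjusted p = 0.00784, limma), from 3.78, 5.76 and 0.679 FPKM to 12.4, 11.2 and 11.2 FPKM. The other 5 genes called were Solyc09g005060.3 (1.47), Solyc10g080900.3 (1.46), Solyc03g005980.3 (1.30), Solyc08g061250.3 (1.27) and Solyc12g056860.2 (1.24), with limma adjusted p-values from 0.0193 to 0.0412. The lowest log2 fold change was the -0.16 of Solyc12g010920.2 (limma adjusted p = 0.909). Of the P450 genes on a keyword list, the tables of the study describe only this member and Solyc04g079640.3 (cytochrome P450 CYP82D47), which was not called (log2 fold change 0.69, limma adjusted p = 0.128).

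The number of genes called between 2 and 4 days depended on the libraries. It was 10 without replicate 3 of 2 days, replicate 2 of 3 days and replicate 3 of 5 days together, chosen once the data had been seen, and 4 without replicate 2 of 4 days. It was 5 without replicate 3 of 2 days, where 26 of the 29 genes had their lowest value of that day, 5 without replicate 1 of 4 days, and 6 without replicate 3 of 4 days. Calls of Solyc01g058250.2, Solyc01g094260.4 and Solyc11g005310.1 held under each of 12 alternatives. Solyc09g089540.4 and Solyc01g018020.3 lost theirs in 1 each, Solyc02g092860.3, Solyc03g005980.3 and Solyc12g056860.2 in 5 each, Solyc08g061250.3 in 6, Solyc10g080900.3 in 7 and Solyc09g005060.3 in 9.

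**Figure D3:**
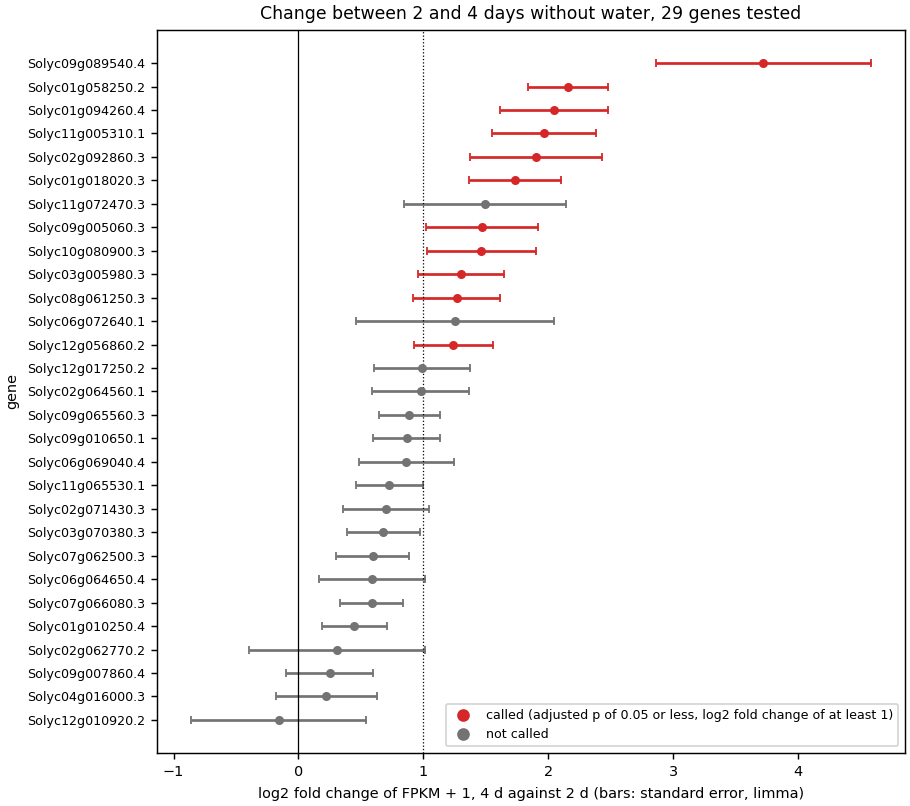
Log2 fold change of FPKM + 1 between 2 and 4 days without water for the 29 genes tested, with the standard error of limma as bars, and genes called in red. Of the 29 genes 28 lie to the right of 0, and the 11 called have values from 1.24 to 3.72.

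Over single steps no gene was called. Between 2 and 3 days, limma called none of the 29 genes. At an unadjusted p under 0.05, 7 were higher and none lower, against 6.49% of all genes tested that were higher. In 7 genes the groups did not overlap with 3 days higher, against 7.02% of all genes tested. Between 3 and 4 days limma also called none. At an unadjusted p under 0.05, 8 were higher and 1 lower, against 9.71% of all genes tested that were higher. In 15 genes every library of 4 days was above every library of 3 days, against 17.8% of all genes tested. Few genes passed over these steps in the whole table, with 0.00501% called higher and 0.0852% lower between 2 and 3 days, and 0.01% called in each direction between 3 and 4 days. With only the libraries of 3 and 4 days in the fit, 5 of the 29 genes were called higher at 4 days, and without replicate 1 of 3 days 2 were. Without the libraries that stood apart, replicate 3 of 2 days, replicate 2 of 3 days and replicate 3 of 5 days, 8 were. The shares of all genes called under these changed fits were not taken, so the 0.01% above is no background for these counts.

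In these genes the libraries of 5 days did not move together. The rule used the mean of 5 days and no library of 4 days, so it favoured genes lifted by a single library of 5 days. The spread and counts below are thus in part set by the choice, and were not taken over all genes. The median coefficient of variation of the 29 genes was 13.4% at 4 days and 63.5% at 5 days, with 41.0% at 2 days and 36.8% at 3 days. Against the mean of 4 days on the log2 scale, 28 of the 29 genes were higher in replicate 1 of 5 days (median difference 1.07), 13 in replicate 2 (-0.02) and 13 in replicate 3 (-0.03). Replicate 1 held the highest value of 5 days in 18 genes, replicate 2 in 6 and replicate 3 in 5. Replicate 3 held the lowest in 17 genes, replicate 2 in 11 and replicate 1 in 1. The condition of 5 days was therefore met in 7 of the 29 genes with over 60% of the sum of the 3 libraries in a single library. The rule gave 21 genes without replicate 1 of 5 days and 48 without replicate 3.

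The genes differed in which library of 5 days was low. The 5 genes highest in replicate 3 were Solyc12g010920.2, Solyc06g064650.4, Solyc02g062770.2, Solyc02g064560.1 and Solyc12g017250.2, all with a D of 1.44 or more at 2 days. The 17 genes lowest in replicate 3 ranged in D at 2 days from -0.38 for Solyc10g080900.3 to 2.24 for Solyc03g005980.3, and 12 of them had a D of at least 1, so the genes low in this library were both early and late ones. Replicate 3 was the library of 5 days with the high antenna level. The part of these differences in the values of the genes was not tested.

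**Figure D4:**
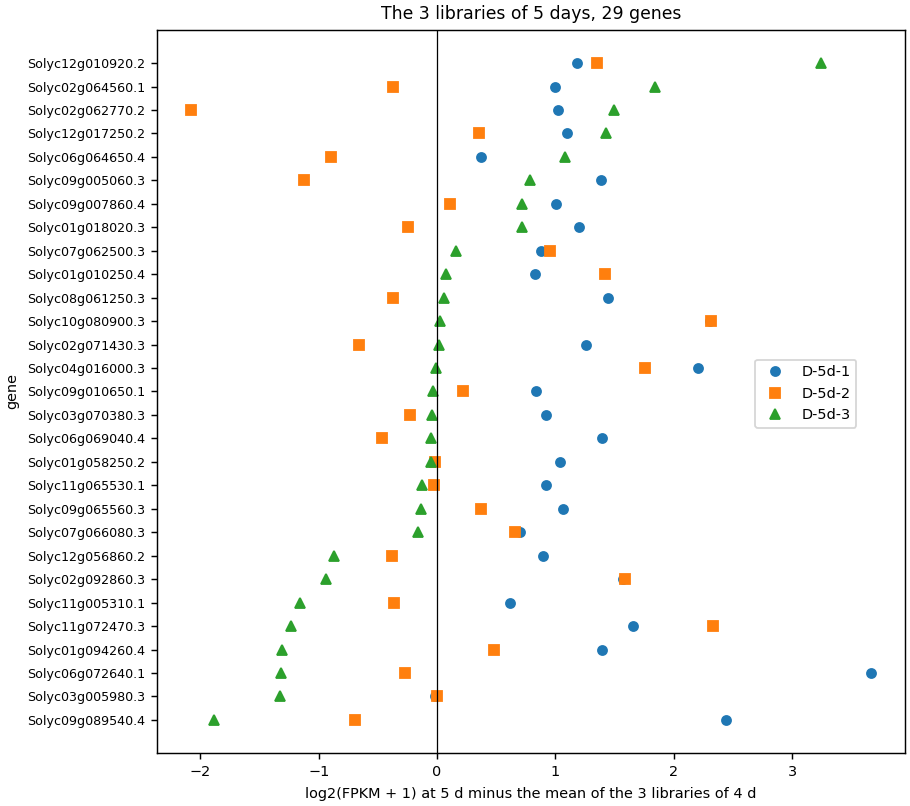
Difference in log2(FPKM + 1) between each library of 5 days and the mean of the 3 libraries of 4 days, for the 29 genes ordered by replicate 3. Replicate 1 (circles) lies to the right of 0 in 28 genes, while replicates 2 (squares) and 3 (triangles) each do so in 13 and differ in which genes.

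After re-watering the genes were back near or below the untreated level, as the rule asked only for an upper bound. The mean was below the untreated mean in 13 of the 33 genes, and in 6 genes D was -1 or less, against 6.87% of all genes tested. In 6 genes every re-watered library was below every untreated library, and the share over all genes was not taken. The upper bound of the rule favoured low values after re-watering, so these counts are in part set by the choice. Solyc07g062500.3 was at 14.8, 5.06 and 8.21 FPKM after re-watering, far under its untreated values of 21.1 to 31.7 FPKM. Solyc11g005310.1 was at 1.66, 0.671 and 0.832 FPKM against 4.50, 7.21 and 1.84 FPKM in untreated leaves. Solyc09g010650.1 was at 2.73, 1.65 and 2.64 FPKM against 6.17, 7.10 and 5.25 FPKM. In all 3 genes the re-watered and untreated libraries did not overlap. Since D after re-watering was part of the rule, no test was run.

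Many of the genes were barely expressed in the heat series, as were many of all genes listed. Of the 33 genes, 18 passed the minimum of 1 FPKM in 3 heat libraries, a share close to that of all genes (18923 of 34075 listed). Listed at 0 in all 18 libraries were 6 genes, the 4 genes of 1 or 2 drought libraries, Solyc02g062770.2 and Solyc09g005060.3. The label of genes not raised by heat held for 24 h, where the rule set it, and not for every earlier time. Against untreated leaves, 2 of the 33 genes had a D of at least 1 at 2 h, 1 after 4 h, 6 after 12 h and 1 in recovery, where 3.77%, 4.17%, 10.5% and 1.93% of all 18923 genes tested did. A D of -1 or less was found in none at 2 h, 1 at 4 h, none at 12 h and 2 in recovery, against 6.29%, 14.4%, 15.3% and 25.2% of all genes tested. The counts were taken over all 33 genes, and the shares over genes that passed the minimum. A gene with an untreated mean under 1 FPKM cannot reach a D of -1, so low counts are in part set by low levels. At 24 h the rule left no gene past either bound, where 10.3% of all genes tested had a D of at least 1 and 32.9% of -1 or less. The 6 genes of 12 h were Solyc09g089540.4, Solyc02g092860.3, Solyc06g069040.4, Solyc11g072470.3, Solyc03g005980.3 and Solyc11g005310.1. For Solyc03g005980.3 the level rested on replicate 2 of 12 h, at 4.54 FPKM against 0.179 and 0.484 FPKM. Solyc11g005310.1 was just past the bound (D of 1.05), at 1.74, 0.128 and 2.82 FPKM. Its replicate 2 of 12 h lay within the range of its untreated libraries (0.144, 0 and 0.580 FPKM). The untreated libraries of the heat series were part of the rule, so these counts too are a description.

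The groups of 2 h, 4 h, 12 h and recovery were not used by the rule and could be tested against each other. Between 2 h and 12 h limma called 4 of the 18 genes higher and none lower, against 4.41% of all genes tested higher and 6.64% lower. The summed antenna level moved the other way over these groups, from 50435 to 80621 FPKM at 2 h to 2409 to 4119 FPKM at 12 h, with 12580 to 34948 FPKM in recovery, and its part in the result was not tested. In 5 of the 18 genes every library of 12 h was above every library of 2 h, against 15% of all genes tested. The P450 gene Solyc02g092860.3 was at 4.15, 3.69 and 1.21 FPKM at 2 h, 31.4, 29.9 and 17.6 FPKM at 12 h and 2.43, 4.78 and 2.60 FPKM at 24 h, with a log2 fold change from 2 h to 12 h of 2.82 and an adjusted p of 0.00033 by limma (standard error 0.42). Its 12 h libraries were above all its other heat libraries, which lay between 1.21 and 7.98 FPKM. Solyc06g069040.4 followed the same course, at 3.37, 1.91 and 3.00 FPKM at 2 h, 15.5, 26.9 and 14.8 FPKM at 12 h and 7.41, 5.11 and 3.66 FPKM at 24 h, with a log2 change from 2 h to 12 h of 2.38 (adjusted p = 0.000125, limma).

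Solyc11g072470.3 rose from 5.56, 2.88 and 5.05 FPKM at 2 h to 14.3, 21.3 and 22.9 FPKM at 12 h (change of 1.91 on the log2 scale, adjusted p = 0.0105 by limma). Solyc07g066080.3 rose from 35.0, 18.8 and 27.0 FPKM to 54.7, 82.7 and 50.3 FPKM (1.20, limma adjusted p = 0.00369). Without replicate 2 of 2 h only 2 of the 4 were called. The same number was called without replicates 2 and 3 of 12 h, which correlated at a mean r of 0.902 and 0.911 with their group, chosen once the data had been seen. The sources used here do not give the clock times of sampling, and no untreated plants of later times were among the samples. At 12 h, hours of heat and hour of the day therefore cannot be told apart.

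Between 4 h and 12 h limma called 3 of the 18 genes higher, and none lower, against 4.8% of all genes tested higher and 2.13% lower. They were Solyc02g092860.3 (log2 fold change 2.53), Solyc06g069040.4 (2.04) and Solyc08g061250.3 (1.50, limma adjusted p = 0.0188). Solyc08g061250.3 lost this call in 6 of 12 alternatives, among them those that left out replicate 1 of 4 h or replicate 1 of 12 h, where 2 genes were called. Between 2 h and 4 h limma called none, where 0.137% of all genes tested were called higher and 1.59% lower. At an unadjusted p under 0.05, 1 of the 18 genes was higher and none lower, against 2.08% of all genes tested that were higher. Between 12 h and recovery limma called 5 genes lower and none higher, against 17.6% of all genes tested that were lower and 4.21% that were higher. They were Solyc02g092860.3 (log2 fold change -3.02), Solyc11g072470.3 (-2.27), Solyc06g069040.4 (-2.27), Solyc07g062500.3 (-2.19) and Solyc08g061250.3 (-1.54). The median log2 fold change of this comparison was -0.94 over the 18 genes and -0.37 over all genes, and the latter was near 0 with median-ratio scaling, under which 5 genes were called too. Without replicates 2 and 3 of 12 h, 9 genes were called lower. Solyc07g062500.3 was at 14.98, 14.5 and 14.9 FPKM in heat recovery, below all its other heat libraries.

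The gene with the widest spread in FPKM in heat was Solyc09g089540.4. It was at 9.28, 10.2 and 57.0 FPKM in untreated leaves, 62.9, 80.5 and 710 FPKM at 2 h, 139, 42.3 and 291 FPKM after 4 h, 675, 127 and 134 FPKM after 12 h, 25.8, 7.79 and 12.2 FPKM after 24 h and 96.6, 61.6 and 22.9 FPKM in recovery. All libraries of 2 h and 12 h were above all untreated ones, and those of 24 h overlapped with them. Between 2 h and 12 h its log2 fold change was 0.55 (limma adjusted p = 0.759). This gene met the bound of the rule at 24 h although its means at 2 h, 4 h and 12 h were past a D of 1.

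**Figure D5:**
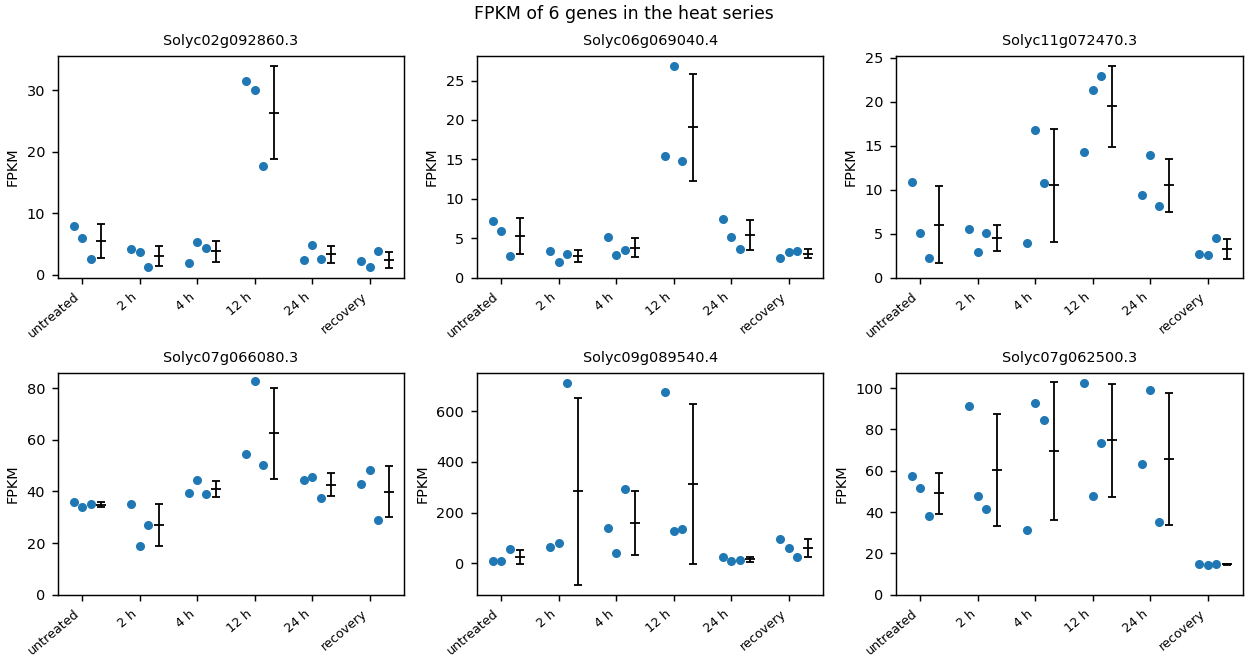
FPKM of 6 genes in the heat series, with each library as a point and the mean with its SD (n = 3) as the bar beside each group. In Solyc02g092860.3, Solyc06g069040.4, Solyc11g072470.3 and Solyc07g066080.3 the mean is highest at 12 h, Solyc09g089540.4 is high at 2 h to 12 h with a wide spread, and Solyc07g062500.3 is lowest in recovery.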

How the data were processed

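The authors deposited 1 table of FPKM per gene for the 21 drought libraries and 1 for the 18 heat libraries. According to the methods of the study, reads were trimmed with Trimmomatic, aligned to the ITAG4.0 reference with TopHat2 and processed with Cuffdiff as stranded libraries, with a single place kept per read, so values of near-identical genes are uncertain. The processing notes name these tools for both series, and the sources used here do not give the settings for the drought libraries. FPKM hold no fragment counts, so the depth is unknown, no count model was used, and a 0 can be a failed estimate. The 2 tables were taken to be scaled each on its own and were not tested against each other.

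The rule, filter, exact tests and figures were run in Python 3.11.15 with pandas 2.3.3. Group comparisons used limma 3.58.1 under R 4.3.3, with moderated variances that followed the mean level, 1 fit per table and a pseudocount of 1, which understates the change of low genes. The fit was tested on simulated data. The members and lists were chosen with earlier results of these data known. Genes named were those of the largest D, level or change, those called, those at the thresholds and those with a description. Keyword lists were planned, and could be applied only to genes described in the tables of the study, which hold 1 member. Promoter and protein sequences were not used here.

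Alternatives were a pseudocount of 0.1, no filter, median-ratio scaling, only the groups compared, the replicate number as a block, and each library left out. For the rule, group medians were also tried. Libraries that stood apart left out together, and the demand that every library of 5 days be above every untreated one, were added after seeing the data.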

Additional observations from a re-analysis of the deposited data

How the results depend on the processing

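The rule gave 33 genes as stated, 19 with a pseudocount of 0.1 (17 of them shared), 28 with median-ratio scaling (24 shared), 34 with group medians (21 shared), and 21 to 48 with 1 library left out, 21 without replicate 1 and 48 without replicate 3 of 5 days. In each of the 18 settings that left out a library, 9 genes were kept. Shares of all genes called were taken for the main fits only. The number of genes called was 5 without a filter on low values, and 4 to 10 with 1 library left out, for 4 against 2 days, where 11 were called. For 4 against 3 days it was 5 with only these groups in the fit, 8 without the 3 drought libraries that stood apart, and 0 to 2 with 1 library left out. For 12 h against 2 h it was 2 without replicates 2 and 3 of 12 h, and 2 to 5 with 1 library left out. For 12 h against 4 h it was 2 to 4, for recovery against 12 h 5 to 7, and for 3 against 2 days and 4 h against 2 h 0 to 0 with 1 library left out. Recovery against 12 h gave 9 without replicates 2 and 3 of 12 h. Values turned positive for Solyc12g010920.2 (4 against 2 days) without replicate 2 of 2 days (0.76), replicate 2 of 4 days (0.04) or replicate 3 of 4 days (0.0057), and negative for Solyc09g089540.4 (12 h against 2 h) without replicate 1 of 2 h (-0.09) or of 12 h (-0.24). With 1 library left out, they ranged from -0.96 to 0.76 and from -0.24 to 1.65. The cause was not tested. In the groups compared, same-numbered libraries did not deviate together (r from -0.218 to 0.183, 3 of 21 pairs over 0.1). These values show no pairing by number but cannot exclude one, and the other groups were not looked at. With the replicate block, 10 genes were called for 4 against 2 days, 0 for 4 against 3 and 3 against 2 days, 4 for 12 h against 2 h, 3 for 12 h against 4 h, 0 for 4 h against 2 h and 5 for recovery against 12 h. The unknown depth limits the genes under 1 FPKM.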

Other observations

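The untreated leaves of the 2 series did not give the same level for every gene. Solyc11g005310.1 was at 4.52 ± 2.69 FPKM (SD, n = 3) in untreated leaves of the drought series and at 0.241 ± 0.302 FPKM (SD, n = 3) in those of the heat series. Solyc09g089540.4 was at 3.13 ± 3.50 FPKM and 25.5 ± 27.3 FPKM, and Solyc08g061250.3 at 0.346 ± 0.141 FPKM and 3.38 ± 1.49 FPKM (SD, n = 3 each). The tables were taken to be scaled each on its own, and the untreated plants of the drought series had soil at about 80% of its water capacity while the labels describe the soil of the heat series as holding its maximum, so these levels are set side by side without a test.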
